A study of Mus musculus with 3 samples.

Results

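The 42 genes described here carry glucose through the cell. They comprise glucose transporters, the enzymes of glycolysis with their regulators, lactate dehydrogenases and lactate transporters, pyruvate dehydrogenase with its kinases, and the enzymes that store and release glycogen. They were chosen by name, and each was taken at the locus of the deposited annotation that holds a transcript matching the RefSeq transcript of the gene. A locus was found for 42 of 42 genes, among 48626 loci in all, and 42 of 42 reached 1 FPKM, a level scaled to exon length and to the mapped fragments of the library, in at least 1 of the libraries. In all 3 libraries 39 genes were at 1 FPKM or more, and none was listed at 0. The libraries were made from total RNA of the heart ventricle of C57BL/6 mice (C57BL/6 J in the study's methods) at the embryonic stages E10.5 and E13.5, counted in days after conception, and at 8 weeks of age (adult), with no genotype change or treatment in the labels. There was 1 library per stage, so every value comes from 1 library, differences between stages could not be checked against replicates, and no test was possible. Values given as a set of 3 follow the order E10.5, E13.5, adult. Whether the tissue of several animals was pooled is not given in the sources used here. The libraries were made for a screen of lncRNAs. Here the stages were compared to see which isoforms of glucose metabolism the ventricle transcribed at each of them.

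Glycolysis splits glucose into pyruvate, which is either reduced to lactate and exported or oxidised in mitochondria after pyruvate dehydrogenase has turned it into acetyl-CoA. Many of the steps are served by isoforms encoded by separate genes, which differ in their affinity for substrate, in their regulation and in the tissue where they prevail. The embryonic heart is known to rely on glycolysis, while the adult heart takes most of its energy from fatty acids and lactate and responds to insulin by moving the transporter GLUT4 to the cell surface.

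The files hold no read counts, so the depth behind a value was inferred from the lowest steps among the FPKM values. A locus of 1 kb at 1 FPKM corresponded to about 13.8, 26.7 and 13.8 fragments in the E10.5, E13.5 and adult libraries, which makes levels close to 1 FPKM imprecise. All 8 cardiomyocyte markers were at 1 FPKM or more in all 3 libraries, with a summed level of 14610 FPKM at E10.5, 21338 by E13.5 and 21313 in adulthood. The summed level of the erythroid markers was 6781, 16370 and 25.3 FPKM in the same order (7 of 8 markers had a locus), that of the macrophage markers 38.9, 95.4 and 393 FPKM, and that of the fibroblast markers 232, 509 and 523 FPKM. Of the latter, Dcn alone was higher in the adult than at E13.5, at 351 against 75.9 FPKM, and the other 5 were lower. Among the erythroid markers the globin genes Hbb-y, Hbb-bh1 and Hba-x held nearly all of both embryonic sums. Alas2, at 19.6 FPKM, held most of the adult sum. The endothelial markers summed to 259.6, 185 and 265 FPKM, the fast skeletal muscle markers to 54.0, 65.1 and 3.64 FPKM, and the neuronal markers to 9.95, 16.0 and 5.48 FPKM. The neutrophil markers summed to 0.867, 14.6 and 22.5 FPKM (6 of 7 markers had a locus), with Elane listed at 0 throughout. In the adult S100a8 at 15.4 and S100a9 at 7.06 FPKM held nearly all of that sum. Mpo was at 0.0159 FPKM there, and Camp and Ngp, at 0.758 and 0.737 FPKM at E13.5, were listed at 0. The adipocyte markers summed to 13.3, 18.2 and 638 FPKM, but Plin1 was listed at 0 in all libraries, Adipoq was at 0.115 FPKM in the adult, and Fabp4 held nearly all of the sum. The part of these cell types in the results below was not tested, and in bulk RNA fewer cells of a type and less RNA per cell cannot be told apart.

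More of the 42 genes differed between the adult and either embryonic library than between the embryonic libraries, and the same held for all mRNA loci. A gene was called higher or lower where log2(FPKM + 1) differed by at least 1, a scale that understates the change of low genes. From E10.5 to E13.5, 2 genes were called higher (Ldhb and Pygb) and 2 lower (Slc2a12 and Eno2), with a median change of 0.17. Among the 12569 mRNA loci that reached 1 FPKM in any library, 5.89% were called higher and 4.85% lower in this comparison, and the median change was also 0.17. From E13.5 to the adult 10 genes were called higher and 14 lower, against 13.0% and 32.1% of all mRNA loci, and the median change was -0.13 against -0.50 for all mRNA loci. From E10.5 to the adult 12 genes were called higher and 15 lower, against 14.8% and 27.3% of all mRNA loci, with medians of -0.22 and -0.40. The share called higher among the 42 genes, 23.8% and 28.6%, was above that of all mRNA loci in both comparisons with the adult, without a test, while the shares called lower were 33.3% and 35.7%.

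**Figure D1:**
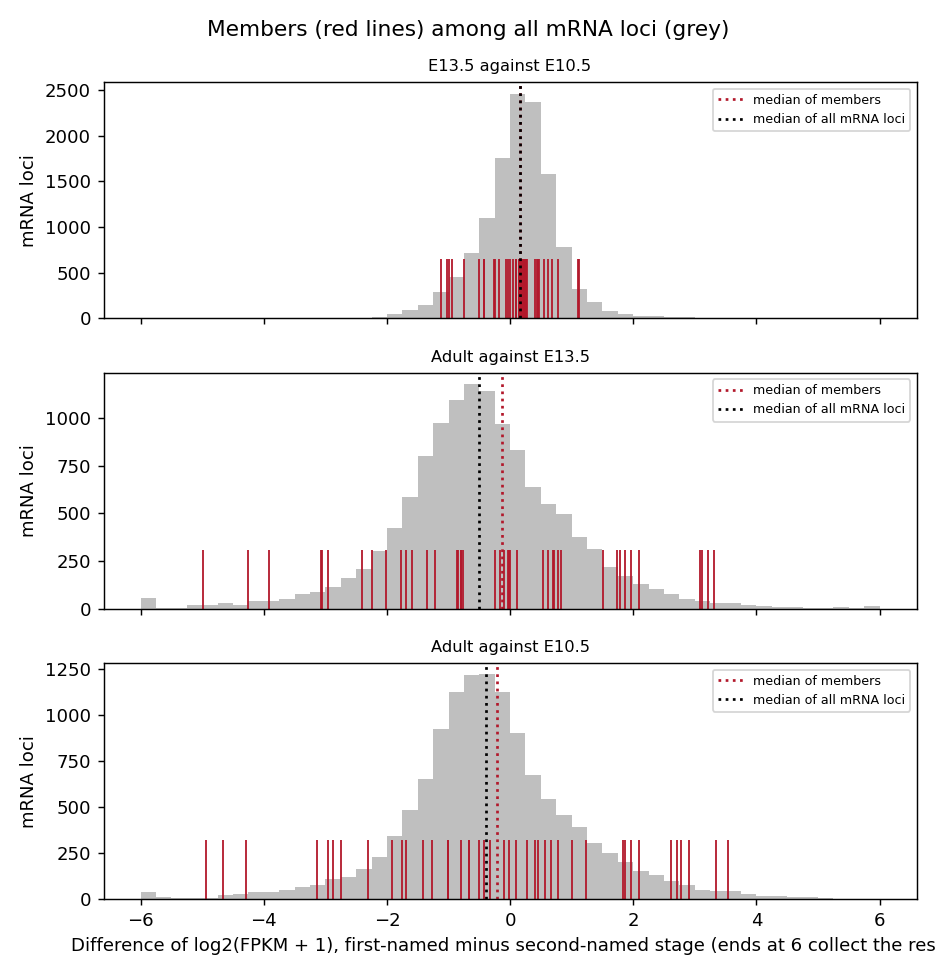
Distribution of the change in log2(FPKM + 1) over the 12569 mRNA loci (grey bars, number of loci on the y axis) for the 3 pairs of stages, with each of the 42 genes drawn as a red line and both medians as dotted lines. The red lines crowd around 0 between the embryonic libraries and spread to both sides in the comparisons with the adult, from -4.98 to 3.31 against E13.5 and from -4.94 to 3.54 against E10.5.

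The median of all mRNA loci lay below 0 in both comparisons with the adult, so the balance of calls depended on how the libraries were scaled. With median-of-ratios scaling the medians of all mRNA loci moved to -0.03 against E13.5 and -0.06 against E10.5, and 14 of the 42 genes were called higher and 12 lower in both comparisons, against 20.8% and 18.9% of all mRNA loci for E13.5 and 20.0% and 18.4% for E10.5. Scaled to the sum of mRNA loci without globin and mitochondrial loci, the adult had 14 higher and 13 lower against E13.5 (17.2% and 23.6% of all mRNA loci) and 12 higher and 14 lower against E10.5 (15.2% and 27.3%). Between the embryonic libraries 0 genes were higher and 4 lower with median-of-ratios scaling (4.18% and 6.29% of all mRNA loci), and 0 higher and 5 lower with the mRNA sum (3.36% and 8.64%). Shares of an isoform within its enzyme family, given below, do not depend on the scaling of a library.

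**Figure D2:**
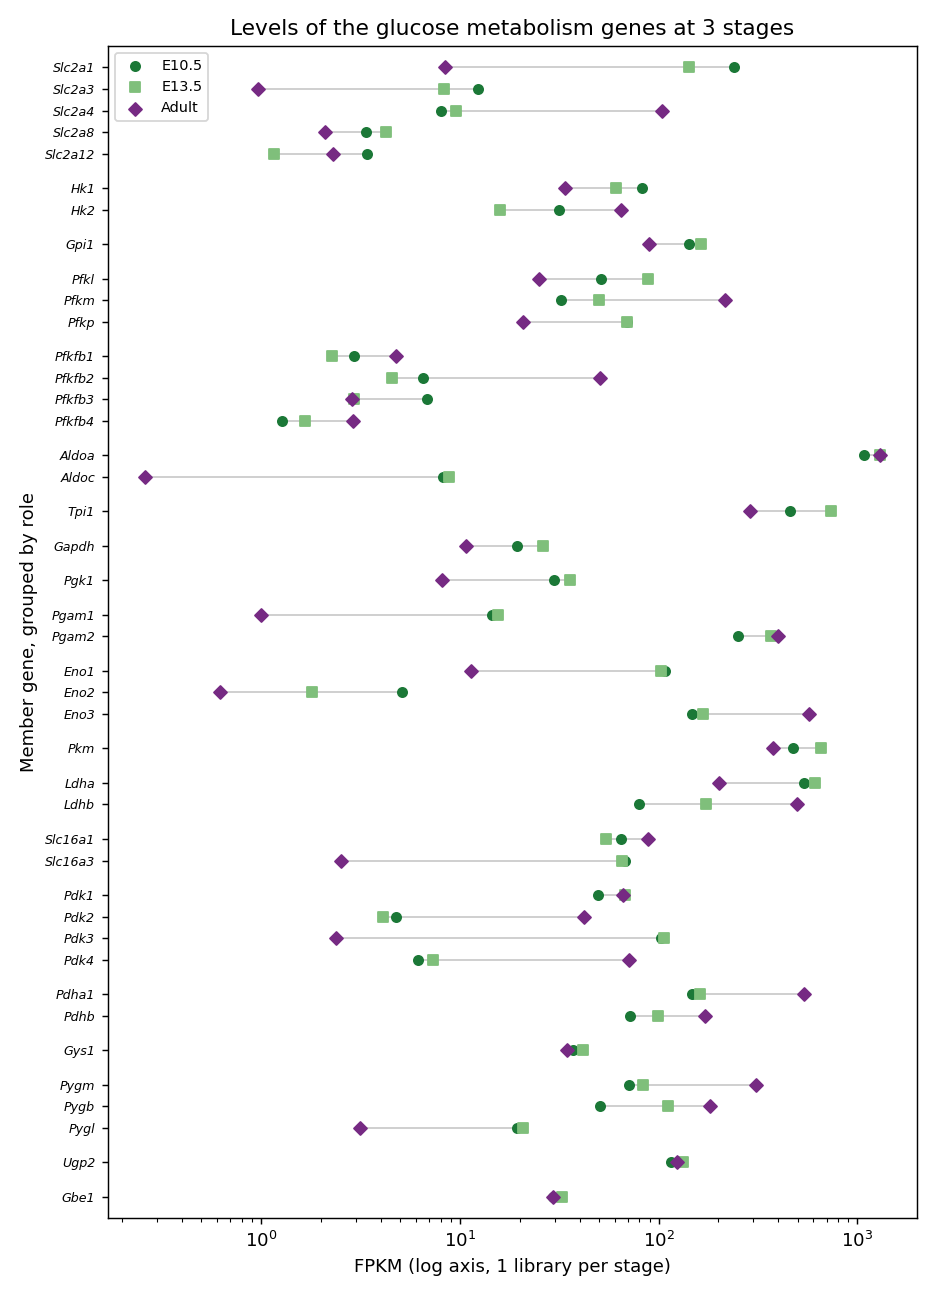
FPKM of each of the 42 genes (rows, grouped by role) in the E10.5, E13.5 and adult libraries, on a log axis, with 1 point per library and a grey line over the range. The embryonic points lie close together in most rows, and the adult point lies far to the left for Slc2a1, Aldoc, Pgam1, Slc16a3 and Pdk3 and far to the right for Slc2a4, Pfkfb2, Pdk2 and Pdk4.

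The leading glucose transporter gene was Slc2a1 in both embryonic libraries and Slc2a4 in the adult. Slc2a1, which encodes GLUT1, the transporter of basal uptake (chromosome 4, 119108745 to 119137329), was at 239 FPKM at E10.5, 142 by E13.5 and 8.41 in adulthood. Slc2a4, which encodes the insulin-responsive GLUT4 (chromosome 11, 69942286 to 69948190), was at 8.00, 9.58 and 104 FPKM. The level of Slc2a1 in the adult was thus 28.4-fold below E10.5, a change of -4.67 in log2(FPKM + 1), while Slc2a4 was 13.0-fold above E10.5, a change of 3.54. Of the FPKM summed over the 5 transporters, Slc2a1 held 89.9%, 85.9% and 7.15% in the 3 libraries, and Slc2a4 held 3.0%, 5.81% and 88.3%. GLUT1 is also abundant in red cell precursors, and the erythroid sum given above, 6781, 16370 and 25.3 FPKM, was lowest in the adult as well. That sum mostly follows globin genes, with Hbb-y at 4356, 15112 and 2.87 FPKM. Against E10.5, 6 erythroid markers were lower in the adult and 1 was higher, Alas2, at 18.2, 34.1 and 19.6 FPKM. The part of red cell precursors in the values of Slc2a1 was not tested. Slc2a3, encoding the high-affinity GLUT3, fell from 12.3 and 8.34 FPKM in the embryonic libraries to 0.965 in the adult, where it rested on about 53 fragments. Slc2a8 and Slc2a12, encoding the less studied transporters GLUT8 and GLUT12, stayed low. Slc2a8 was at 3.38, 4.23 and 2.09 FPKM. Of the unspliced loci on its opposite strand, 1 was at 0.621, 0.583 and 1.08 FPKM and the other at 0.203, 0.0716 and 0.299 FPKM. The kit keeps the strand, but whether the counting used it is not stated, so reads of genes that overlap on opposite strands may not be separated. Besides the overlaps given with their values here, loci lie opposite Hk1, Pfkl, Aldoa, Tpi1, Pgam2, Pdha1, Pdhb and Ugp2. None of these exceeded 21.1% of the level of its gene (Ugp2 at E10.5). Slc2a12 was at 3.39, 1.16 and 2.29 FPKM, and its locus overlaps that of Tbpl1 on the other strand, which was at 15.0, 20.8 and 7.63 FPKM. The summed level of the 5 transporters was 266 FPKM at E10.5, 165 by E13.5 and 118 in adulthood, and with median-of-ratios scaling the adult sum was 1.06 times that of E13.5.

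Promoter windows are shown for Slc2a1 and for the pairs Pfkp and Pfkm, Ldha and Ldhb, and Pdk3 and Pdk4. They come from the 4 families with the largest change in shares between E10.5 and the adult. Each window covers the 250 bases upstream of the RefSeq start in GRCm38.p6 and is written 5′ to 3′ on the strand of the gene. Capitals mark the letters ACGTG on either strand. They are 1 form of the core of the sites bound by hypoxia-inducible factors and, where the letters are CACGTG, the core of E-box sites. Another form of the former core, GCGTG, was neither searched nor marked, so a window without a match may still hold it. The window of Slc2a1 (chr4:119108495-119108744, plus strand) held 1 match.
Slc2a1: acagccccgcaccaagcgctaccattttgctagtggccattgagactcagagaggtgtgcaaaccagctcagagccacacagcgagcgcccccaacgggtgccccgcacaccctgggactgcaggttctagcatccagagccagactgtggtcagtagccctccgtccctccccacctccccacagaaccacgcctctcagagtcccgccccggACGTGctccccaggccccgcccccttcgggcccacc

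The hexokinases, which trap glucose in the cell by phosphorylating it, were led by a different gene in the adult. Hk1, the form of most tissues, was at 82.4 FPKM at E10.5, 61.3 by E13.5 and 33.7 in adulthood. Hk2, the insulin-regulated form of muscle, was at 31.6, 15.9 and 64.7 FPKM. Hk2 rose by 1.96 in log2(FPKM + 1) from E13.5 and by 1.01 from E10.5, and Hk1 was called lower only against E10.5 (-1.27, or -0.86 with median-of-ratios scaling, which is not a call). Hk1 thus led in the embryonic libraries, with 72.3% of the pair at E10.5 and 79.5% at E13.5, and Hk2 led with 65.8% in the adult. The sum of the pair differed less, at 114, 77.1 and 98.4 FPKM. Gpi1, the isomerase of the next step, was at 143, 163 and 89.4 FPKM, a difference from both embryonic libraries that was not called.

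Phosphofructokinase, which commits glucose to glycolysis, showed a change of isoform in the adult. Pfkm, the muscle form (chromosome 15, 98092589 to 98132447), was at 32.2 FPKM at E10.5, 50.0 by E13.5 and 216 in adulthood, 6.70-fold above E10.5. Pfkl, the liver form, was at 51.4, 88.3 and 25.1 FPKM, and Pfkp, the platelet form, at 69.1, 69.1 and 20.7 FPKM. Pfkm held the smallest share of the 3 genes in both embryonic libraries, 21.1% and 24.1%, and 82.5% in the adult. The fall of Pfkp from E10.5, by 1.69 in log2(FPKM + 1), was called under each scaling, whereas that of Pfkl was at the threshold (-1.01) and was -0.61 with median-of-ratios scaling. Pfkl fell from E13.5 by 1.78. The 5′ end of the Pfkm locus overlaps that of Senp1 on the other strand, which was at 14.9, 10.6 and 5.69 FPKM. The Pfkp locus overlaps that of Pitrm1 on the other strand, which was at 36.4, 35.2 and 18.0 FPKM, close to Pfkp itself in the adult. The summed level of the 3 genes was 153, 207 and 261 FPKM.

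The windows of Pfkp (chr13:6648772-6649021, minus strand) and Pfkm (chr15:98092339-98092588, plus strand) are set side by side. These isoforms lost and gained the largest share of this family between E10.5 and the adult. From E13.5 to the adult Pfkl lost more than Pfkp (-33.0 against -25.4 percentage points). Of 4 windows listed for Pfkm, the nearest to the 5′ end of the deposited locus was taken, and it held 1 copy of CACGTG while that of Pfkp held no match.
Pfkp: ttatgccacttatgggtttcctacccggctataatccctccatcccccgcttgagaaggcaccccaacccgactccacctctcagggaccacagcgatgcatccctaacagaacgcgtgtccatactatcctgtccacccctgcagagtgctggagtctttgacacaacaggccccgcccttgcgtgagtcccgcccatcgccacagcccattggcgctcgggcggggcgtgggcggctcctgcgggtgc
Pfkm: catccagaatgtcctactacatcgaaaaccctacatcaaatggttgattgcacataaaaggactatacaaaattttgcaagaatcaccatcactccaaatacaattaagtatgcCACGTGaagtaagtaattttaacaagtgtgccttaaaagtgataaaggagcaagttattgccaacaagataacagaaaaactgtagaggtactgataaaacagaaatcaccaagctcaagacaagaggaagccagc

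The bifunctional Pfkfb enzymes make and break a regulatory form of fructose bisphosphate, not the glycolytic one, as a signal to phosphofructokinase. Their genes moved in favour of the heart form. Pfkfb2, the heart form, was at 6.50 FPKM at E10.5, 4.57 by E13.5 and 50.5 in adulthood, a rise of 2.78 over E10.5 and of 3.21 over E13.5. Its locus is joined in the annotation with the pseudogene C4bp-ps1, so that the value holds both. It also overlaps Yod1 on the other strand, which was at 4.41, 2.97 and 4.34 FPKM. Pfkfb3, the inducible form of proliferating cells, was at 6.81, 2.94 and 2.88 FPKM, and its difference between the adult and E10.5 (-1.01) was -0.68 with median-of-ratios scaling. The remaining members were low in all libraries. Pfkfb1, the liver and skeletal muscle form, was at 2.92, 2.26 and 4.76 FPKM, and Pfkfb4, the testis form, at 1.27, 1.67 and 2.89 FPKM. Both overlap loci of the other strand, Apex2 at 7.62, 4.03 and 4.61 FPKM and an unnamed locus at 0.197, 0.0552 and 1.12 FPKM. Pfkfb2 held 37.1% of the family at E10.5, 40.0% by E13.5 and 82.7% in adulthood.

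Aldolase was the step with the highest level in every library and changed least in its isoforms. Aldoa, the muscle form, was the highest of the 42 genes at each stage, at 1075 FPKM at E10.5, 1293 by E13.5 and 1296 in adulthood, and held 22.7%, 22.3% and 21.8% of their summed level. Aldoc, the brain form, was at 8.18 and 8.79 FPKM in the embryonic libraries and at 0.259 in the adult, where it rested on about 6 fragments. Aldoc was called lower in the adult, but its share of the family was small throughout, at 0.755%, 0.675% and 0.020%. Tpi1, which interconverts the triose phosphates made by aldolase, was at 457, 733 and 287 FPKM, and its fall from E13.5 (-1.35) was -0.78 with median-of-ratios scaling.

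Values of the next steps are uncertain, because Gapdh, Pgk1, Pgam1 and Eno1 have near-identical copies elsewhere in the genome. A search of GRCm38 with their transcripts, at 98% identity or more over at least 100 nt, found copies of the whole Gapdh transcript at 31 places, of 96.9% of Pgk1 at 3 places, of 94.7% of Pgam1 at 3 places and of 97.6% of Eno1 at 2 places. How the deposited FPKM treated fragments that map to several places is not stated. No such copy was found for 35 of the 42 genes. Copies at 10286 other places together covered 37.4% of the Gpi1 transcript, those at 81 places 3.65% of Pdk4 and that at 1 place 2.18% of Pfkfb2. The level of Gpi1 is thus uncertain in part as well. Gapdh, the dehydrogenase of glycolysis, was at 19.4, 26.2 and 10.7 FPKM, far below Tpi1 of the step before it. Pgk1, the kinase that makes the first ATP of the pathway, was at 29.8, 35.8 and 8.13 FPKM. Both were called lower in the adult than at E13.5, although the change of Gapdh (-1.22) was -0.68 with median-of-ratios scaling, and Pgk1 was also called lower than at E10.5 (-1.75).

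Phosphoglycerate mutase was led by the muscle gene at every stage. Pgam2, the muscle form, was at 250.5 FPKM at E10.5, 368 by E13.5 and 399.7 in adulthood. Pgam1, the form of most other tissues, was at 14.5, 15.5 and 1.00 FPKM, although the copies noted above make its level uncertain. Pgam2 held 94.5%, 95.9% and 99.7% of the pair, and its difference between the adult and E10.5 (0.67) was a call only with median-of-ratios scaling (1.08).

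Enolase moved to the muscle form. Eno3, the muscle form (chromosome 11, 70657196 to 70662515), has no near-identical copy and was at 147 FPKM at E10.5, 167 by E13.5 and 574 in adulthood. Eno1, the form of most tissues, was at 108, 103 and 11.4 FPKM. Eno3 rose by 1.96 over E10.5 and by 1.78 over E13.5, and Eno1 fell by 3.14 in the former comparison. Eno2, the neuronal form, was at 5.12, 1.80 and 0.621 FPKM and was called lower at E13.5 than at E10.5 (-1.13). The share of Eno3 was 56.6%, 61.5% and 98.0%, which makes enolase the family with the largest shift among those whose leading gene stayed the same. Gm5506, a near-identical copy of Eno1, was listed at 72.5 FPKM at E10.5, 0.0387 by E13.5 and 0 in adulthood. With its value added to Eno1, Eno1 led the family at E10.5 with 54.2% against 44.2% for Eno3, and the shares at E13.5 and in the adult were 61.5% and 98.0% for Eno3.

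Pyruvate kinase was read from a single locus. Pkm (named Pkm2 in the annotation) was at 476, 653 and 378 FPKM, and the sign of its small change from E10.5 to the adult turned with the scaling (-0.33 in the deposited scaling, 0.08 with median-of-ratios factors). Its matched transcripts differ in exon 9, which lies at chromosome 9, 59675029 to 59675195 in the first and at 59675568 to 59675734 in the second, each 167 nt long. The deposited FPKM sums both, so the exchange of the splice forms PKM1 and PKM2 could not be read from it.

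**Figure D3:**
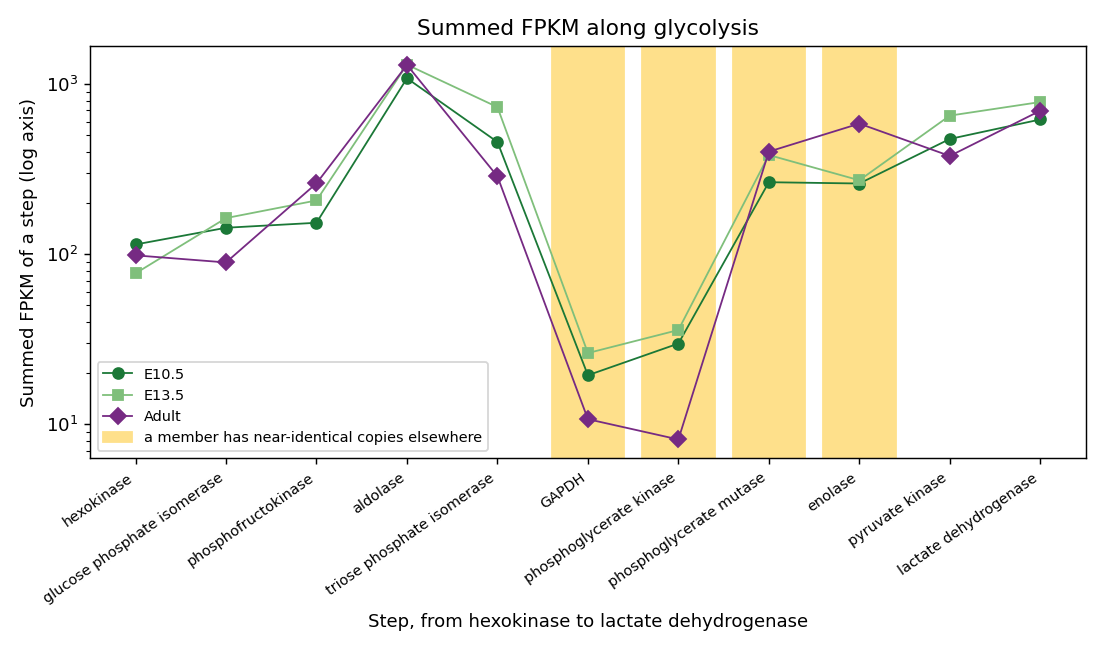
FPKM summed over the genes of each step from hexokinase to lactate dehydrogenase (log axis), with 1 line per library. Yellow bands mark the steps where a gene has near-identical copies over most of its transcript. Aldolase is the peak with 1083, 1302 and 1297 FPKM, and the trough falls on GAPDH and phosphoglycerate kinase, both inside the bands. The lines lie apart at several steps, such as phosphoglycerate kinase (29.8, 35.8 and 8.13 FPKM) and enolase (260.4, 272 and 586 FPKM).

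Lactate dehydrogenase changed its leading subunit. Ldha, whose subunit favours making lactate (chromosome 7, 46845801 to 46856172), was at 539.9 FPKM at E10.5, 612 by E13.5 and 202 in adulthood. Ldhb, whose subunit prevails in the heart and favours using lactate (chromosome 6, 142490155 to 142508488), was at 79.7, 173 and 496 FPKM. Ldhb was the only gene called higher at both steps, by 1.11 from E10.5 to E13.5 and by 1.51 from E13.5 to the adult, but the first was 0.95 with median-of-ratios scaling and 0.80 with the mRNA sum, under the threshold. Ldha fell by 1.41 from E10.5 to the adult. Ldhb held 12.9%, 22.0% and 71.0% of the pair, so its share was higher at each later stage. The sum of the pair was 619.7, 785 and 698 FPKM.

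The window of Ldha (chr7:46845554-46845803, plus strand) held 5 matches to ACGTG counted on both strands, 4 of them within its 2 copies of CACGTG. That of Ldhb (chr6:142507958-142508207, minus strand) held none, but it lies inside the deposited locus, whose 5′ end is 531 nt from the RefSeq start used.
Ldha: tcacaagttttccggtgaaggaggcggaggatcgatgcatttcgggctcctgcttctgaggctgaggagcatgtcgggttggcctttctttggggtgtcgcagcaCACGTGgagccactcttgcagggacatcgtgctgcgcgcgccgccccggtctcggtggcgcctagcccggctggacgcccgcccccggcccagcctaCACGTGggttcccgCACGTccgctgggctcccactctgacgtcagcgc
Ldhb: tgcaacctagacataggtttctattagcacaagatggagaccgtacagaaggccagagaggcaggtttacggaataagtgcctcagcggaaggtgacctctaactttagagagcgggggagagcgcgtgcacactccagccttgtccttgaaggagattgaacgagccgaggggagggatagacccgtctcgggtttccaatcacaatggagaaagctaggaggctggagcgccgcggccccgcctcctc

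Of the monocarboxylate transporters, which carry lactate and pyruvate across the membrane, Slc16a3 fell and became the minor gene in the adult. Slc16a3, encoding MCT4, the exporter of glycolytic cells, was at 67.4 FPKM at E10.5, 65.8 by E13.5 and 2.51 in adulthood, 26.9-fold below E10.5. Slc16a1, encoding MCT1, which works in uptake as well as export, was at 64.4, 54.2 and 88.5 FPKM. The pair was nearly balanced in the embryonic libraries, with Slc16a1 at 48.9% and 45.1%, whereas Slc16a1 held 97.2% in the adult. The difference of Slc16a1 from E13.5 (0.70) reached the threshold with median-of-ratios scaling (1.26) and with the mRNA sum (1.03).

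The kinases that switch off pyruvate dehydrogenase exchanged their leading gene. Pdk3 (X chromosome, 93754855 to 93832221), a form known to respond to hypoxia, was at 103 FPKM at E10.5, 106 by E13.5 and 2.38 in adulthood. At -4.94 against E10.5, its change in the adult was the largest fall among the 42 genes under each scaling. Pdk4 (chromosome 6, 5483281 to 5496278), induced by fasting and fatty acids, was at 6.16, 7.34 and 71.3 FPKM. Pdk2, a widely expressed form, was at 4.79, 4.11 and 42.1 FPKM. Both rose in the adult, Pdk4 by 3.34 and Pdk2 by 2.90 over E10.5. Pdk1 did not follow either pattern, at 49.8, 68.0 and 65.9 FPKM. Pdk3 held 62.8%, 57.1% and 1.31% of the family, and in the adult Pdk4 with 39.3%, Pdk1 with 36.3% and Pdk2 with 23.2% shared the rest. The summed level of the 4 kinases was 163, 185 and 182 FPKM, which differed less between stages than the levels of Pdk2, Pdk3 or Pdk4. The Pdk2 locus overlaps that of Samd14 on the other strand, which was at 3.22, 3.93 and 0.189 FPKM.

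The window of Pdk3 (chrX:93832151-93832400, minus strand) held 1 match to ACGTG and that of Pdk4 (chr6:5496279-5496528, minus strand) held none.
Pdk3: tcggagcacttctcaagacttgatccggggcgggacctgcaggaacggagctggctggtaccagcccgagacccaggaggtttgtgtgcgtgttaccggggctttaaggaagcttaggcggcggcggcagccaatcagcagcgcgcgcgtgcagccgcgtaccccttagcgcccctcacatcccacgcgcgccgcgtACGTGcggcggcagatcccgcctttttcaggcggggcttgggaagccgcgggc
Pdk4: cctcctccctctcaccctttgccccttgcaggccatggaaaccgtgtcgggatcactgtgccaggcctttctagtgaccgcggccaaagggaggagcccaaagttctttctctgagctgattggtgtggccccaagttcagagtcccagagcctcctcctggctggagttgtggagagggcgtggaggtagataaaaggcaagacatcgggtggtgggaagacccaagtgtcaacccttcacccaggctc

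Both subunits of the pyruvate dehydrogenase E1 component, the target of these kinases, were higher in the adult. Pdha1, the phosphorylated alpha subunit, was at 147 FPKM at E10.5, 162 by E13.5 and 537 in adulthood. Pdhb, the beta subunit, was at 71.8, 99.7 and 171 FPKM. Pdha1 rose by 1.86 and Pdhb by 1.24 over E10.5, and the difference of Pdhb from E13.5 (0.77) was a call with median-of-ratios scaling (1.33) and with the mRNA sum (1.10). In the adult Pdha1 was the third highest of the 42 genes, after Aldoa and Eno3.

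In glycogen metabolism the phosphorylases, which release glucose from glycogen, changed, and no change of Gys1, Ugp2 or Gbe1, which act in synthesis, was called. Pygm, the muscle form, was at 70.9 FPKM at E10.5, 83.7 by E13.5 and 308 in adulthood, 4.34-fold above E10.5. Pygb, the brain form, was at 50.5, 111 and 182 FPKM and was called higher at E13.5 than at E10.5 (1.12, or 0.96 with median-of-ratios scaling and 0.81 with the mRNA sum). Pygl, the liver form, fell from 19.3 and 20.8 FPKM to 3.14. The leading gene was Pygm at E10.5 with 50.4%, Pygb at E13.5 with 51.5% and Pygm in the adult with 62.4%, and Pygl passed from 13.7% and 9.67% to 0.636%. The summed level of the phosphorylases was 141, 215 and 494 FPKM. Gys1, the muscle glycogen synthase, was at 37.2, 41.5 and 34.7 FPKM. Ugp2, which makes the UDP-glucose used by the synthase, was at 116, 133 and 124 FPKM. Gbe1, the branching enzyme, was at 29.4, 32.8 and 29.3 FPKM. Their changes were between -0.25 and 0.20 in the deposited scaling, and at most 0.50 in size with the others, where several changed sign.

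Isoform shares were compared across the 11 families with more than 1 gene. The gene with the largest share in the adult differed from that at E10.5 in 7 families, and from that at E13.5 in 7. These 7 were the glucose transporters, hexokinases, phosphofructokinases, lactate dehydrogenases, monocarboxylate transporters and pyruvate dehydrogenase kinases in both comparisons, with the Pfkfb genes against E10.5 and the phosphorylases against E13.5. With Gm5506 added to Eno1, the leading gene of enolase also differed between E10.5 and the adult. The share that moved from some isoforms to others between E10.5 and the adult was 86.5 percentage points in the transporters, 61.5 in the kinases of pyruvate dehydrogenase, 61.4 in phosphofructokinase and 58.1 in lactate dehydrogenase. It was 48.4 in the monocarboxylate transporters, 45.6 in the Pfkfb genes, 41.4 in enolase and 38.0 in hexokinase. Phosphorylase, phosphoglycerate mutase and aldolase moved least, by 13.1, 5.23 and 0.735 percentage points. The shares of phosphoglycerate mutase and enolase rest in part on Pgam1 and Eno1, whose levels are uncertain because of their near-identical copies. Between E10.5 and E13.5 the moved share ranged from 0.0795 percentage points in aldolase to 15.6 in the phosphorylases, where it exceeded the move from E10.5 to the adult. The family sums in the adult were 0.442 to 3.51 times those of E10.5, with the transporters lowest and the phosphorylases highest (0.588 to 4.67 with median-of-ratios scaling). The isoforms that gained the largest share were Slc2a4, Hk2, Pfkm, Pfkfb2, Aldoa, Pgam2, Eno3, Ldhb, Slc16a1, Pdk4 and Pygm, most of which are known as muscle or heart forms.

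**Figure D4:**
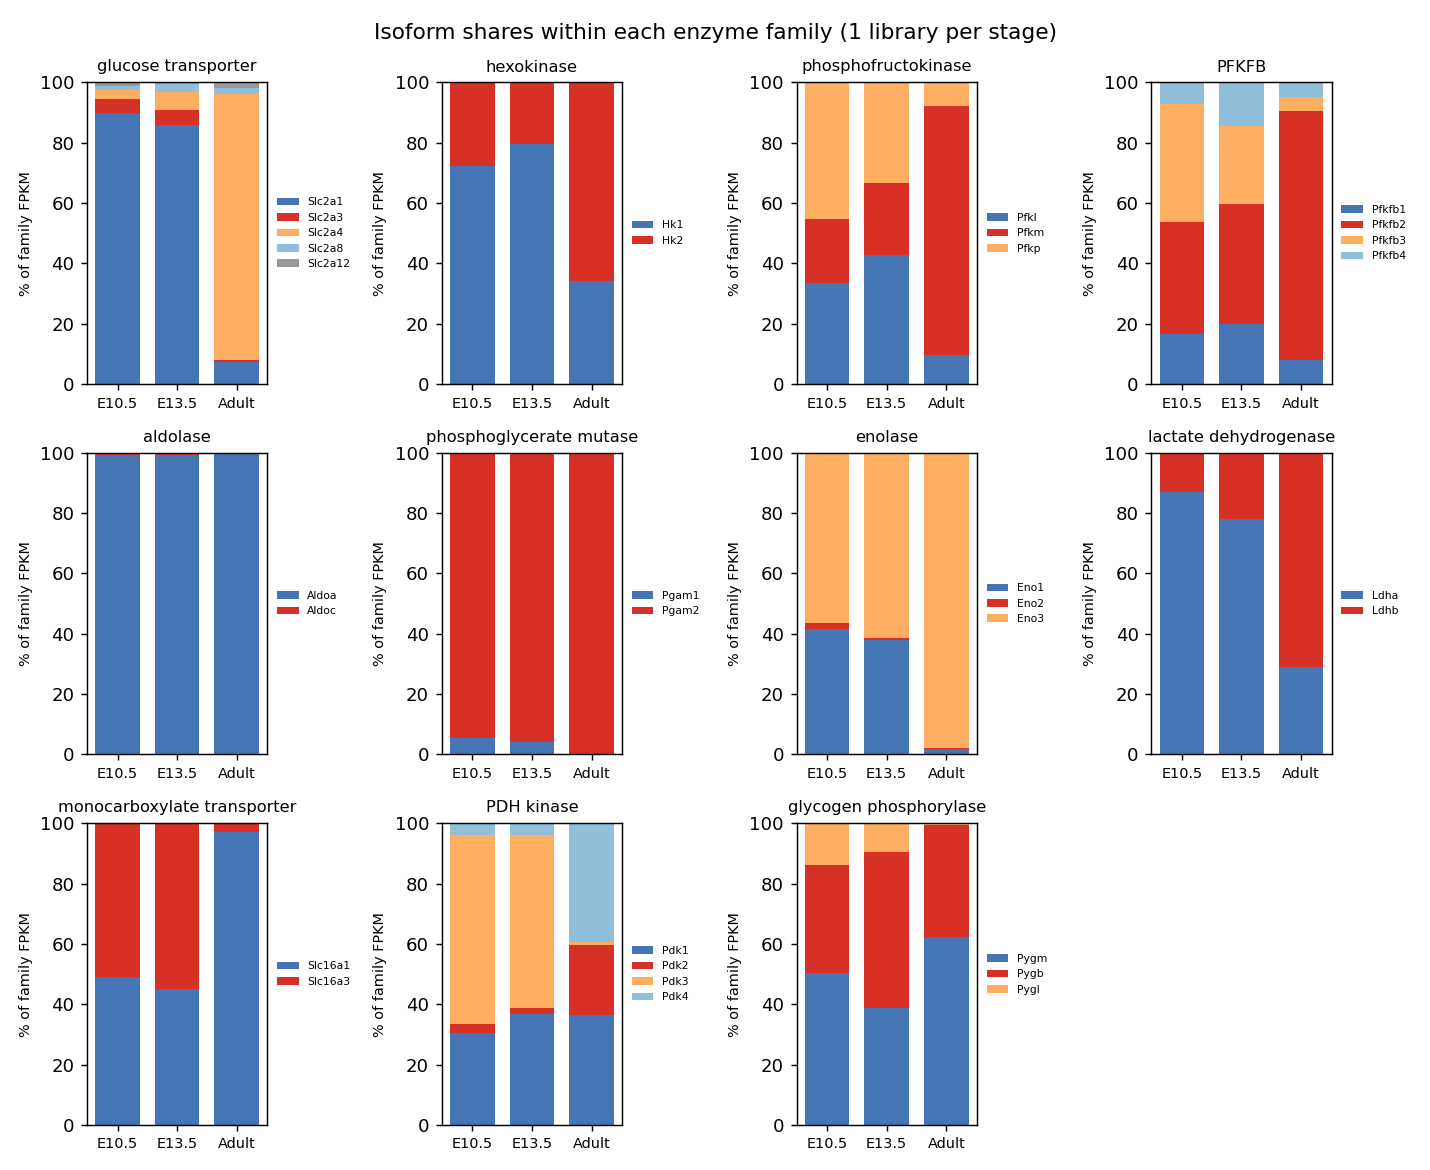
Share of each gene in the FPKM summed over its enzyme family (stacked bars to 100%, y axis in percent), with 1 bar per library in each of the 11 families. The embryonic bars resemble each other, while the adult bar is dominated by another colour in the glucose transporters (Slc2a4, 88.3%), phosphofructokinase (Pfkm, 82.5%), lactate dehydrogenase (Ldhb, 71.0%) and the PDH kinases, where Pdk3 shrank to 1.31%.

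The summed level of the 42 genes was 4741 FPKM at E10.5, 5803 by E13.5 and 5955 in adulthood, or 1.39%, 1.34% and 1.80% of the FPKM of all mRNA loci. With the threshold raised to 2, the adult had 7 genes above and 8 below E10.5 (5.59% and 8.10% of all mRNA loci) and 5 above and 9 below E13.5 (4.41% and 9.88%), while E13.5 had none on either side of E10.5 (0.851% and 0.247%). Those above E10.5 were Slc2a4, Pdk4, Pdk2, Pfkfb2, Pfkm, Ldhb and Pygm, and those below were Pdk3, Slc2a1, Slc16a3, Eno1, Pgam1, Aldoc, Slc2a3 and Pygl. Without the 4 genes with near-identical copies over most of their transcript, 12 of the remaining genes were called in each direction against E10.5 at the threshold of 1. Of all mRNA loci, 14.8% were called higher and 27.3% lower at that threshold.

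**Figure D5:**
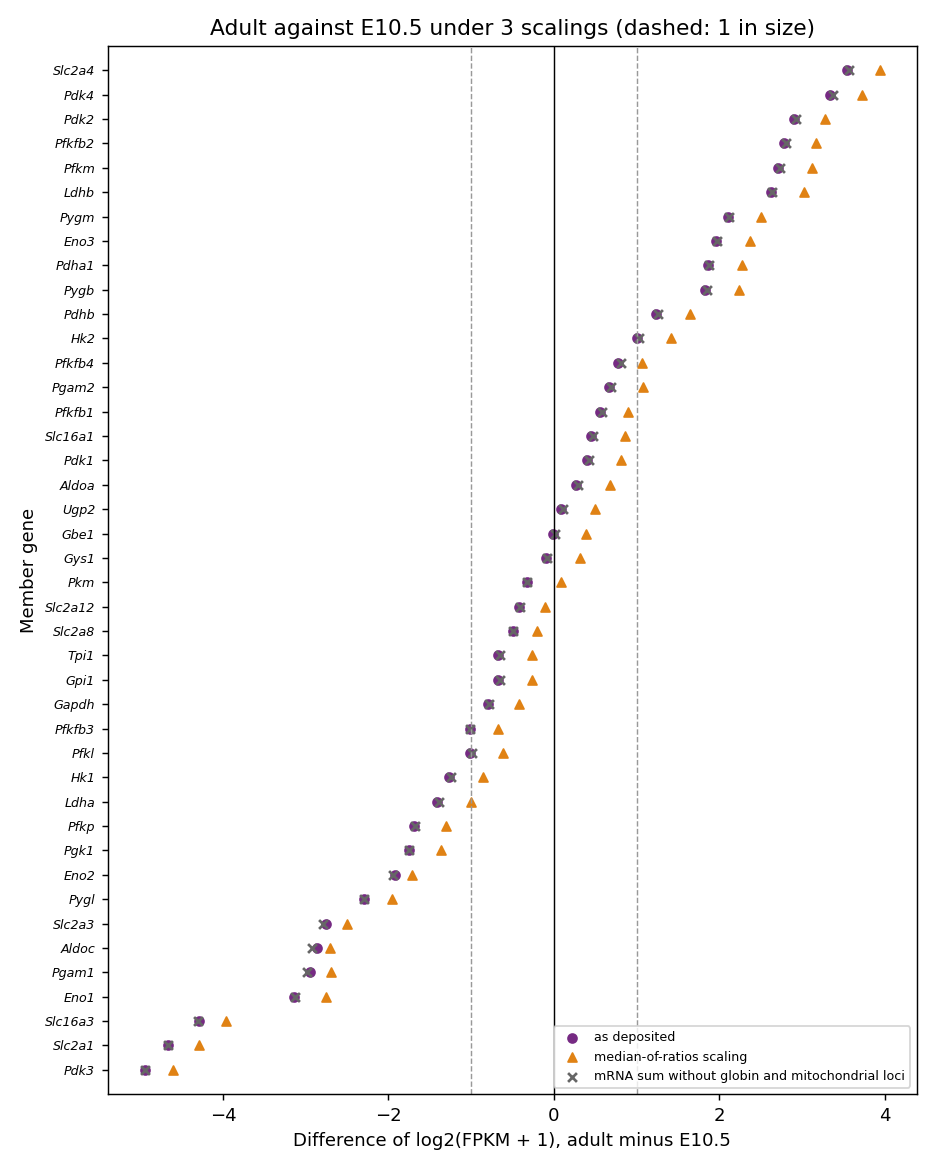
Change in log2(FPKM + 1) from E10.5 to the adult for each of the 42 genes (rows, ordered by the deposited change), in the deposited scaling (circles), with median-of-ratios scaling (triangles) and with the mRNA sum (crosses). The order runs from Pdk3 at -4.94 to Slc2a4 at 3.54, the triangles lie to the right of the circles in every row, and only genes close to the dashed lines at 1 in size or to 0 cross them.

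A RefSeq promoter window was found for 40 of the 42 genes, all except Slc2a3 and Slc2a4. The RefSeq start used was not always at the 5′ end of the deposited locus, and lay 13205 nt from it for Pfkfb2 and 3565 nt for Pfkfb4. The letters ACGTG occurred on either strand in 15 of the 40 windows (37.5%), against 16.6% of all 32851 windows of the same length. By the call of the adult against E10.5, they were in 6 of the 11 windows of genes called higher, 8 of the 14 of genes called lower and 1 of the 15 of the others. The letters GGGCGG, the core of sites of the Sp1 family, were in 21 windows (52.5%, against 32.7% of all), namely 2, 10 and 9 in the same order. TATAAA, the core of the TATA box, was in 1 window (2.50%, against 12.4% of all). The windows of these genes were also richer in G and C, with a median of 60.0% against 52.4%, and these matches are descriptions of the letters only.

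Other genes of the same pathways were examined as a list of 68, of which 57 reached 1 FPKM in at least 1 library. From E10.5 to the adult 18 of the 57 were called higher and 18 lower, with a median change of 0.14, against 14.8% and 27.3% of all mRNA loci. From E13.5 to the adult 20 were higher and 13 lower, with a median of 0.15, against 13.0% and 32.1%. Of 6 further genes of the pyruvate dehydrogenase complex and its phosphatases, 4 were higher in the adult than at E10.5 with none lower. Of 8 genes of the pentose phosphate pathway, which makes NADPH and ribose, 5 were lower and none higher. These groups are small, and their counts stand against the shares of all mRNA loci just given. In the pentose phosphate pathway, Tkt (transketolase, whose locus also holds Mir3076) was at 51.3, 65.5 and 9.38 FPKM, Pgd at 46.9, 16.8 and 10.6 FPKM, and Pgls at 49.7, 69.9 and 16.8 FPKM. Of 17 further genes of glycogen metabolism, 4 were higher and 6 lower. Ppp1r3a, the muscle subunit that brings protein phosphatase to glycogen, was at 6.06, 6.15 and 92.7 FPKM, and Phkg1, the muscle catalytic subunit of phosphorylase kinase, at 0.511, 0.260 and 6.13 FPKM. Gyg, the primer protein of glycogen, fell from 566 and 464 FPKM to 65.4, and Stbd1, which tethers glycogen to membranes, from 14.7 and 29.7 to 3.17 FPKM.

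Genes of other branches followed. Fbp2, the muscle fructose bisphosphatase, was at 0.474, 0.378 and 31.7 FPKM, a rise of 4.47 over E10.5 that was larger than the rise of any of the 42 genes. Ldhd, which acts on D-lactate, was at 0.360, 0.193 and 14.6 FPKM, and Mpc2, a subunit of the mitochondrial pyruvate carrier, at 35.3, 60.4 and 160.2 FPKM. These 3 genes were higher in the adult than in both embryonic libraries. Of 5 genes of GLUT4 trafficking, 2 were higher and 2 lower than at E10.5, and Lnpep, the aminopeptidase of GLUT4 vesicles, was at 46.3, 16.1 and 82.0 FPKM. Pck2, the mitochondrial enzyme that makes phosphoenolpyruvate, fell from 14.2 FPKM at E13.5 to 2.52 in the adult, after 8.35 at E10.5.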

How the data were processed

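The 3 libraries were made from total RNA of mouse heart ventricle with a stranded total RNA kit. Per the study's methods and the submitters' processing notes, the authors mapped the reads to mm10 (GRCm38) with TopHat2 and Bowtie and assembled them with Cufflinks. Further tool versions, the strand setting and the treatment of multiply mapped fragments are not given in the sources used here. The authors deposited FPKM values per merged locus, already scaled to exon length and library size, and the exons of the merged transcripts.

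Genes were matched to loci by name and by a transcript equal to the RefSeq transcript. Other loci of the same name, found for 2 genes, lay on the opposite strand and entered an alternative only. Changes are differences of log2(FPKM + 1), over loci that reached 1 FPKM in any library, with a call at 1 in size. With 1 library per stage no test was run. Every one of the 42 genes is named, and of the other pathway genes those that changed by at least 2 between the adult and either embryonic library, apart from some that are not reported here. The genes, lists and rules were chosen with earlier results of these data known. Alternatives covered the pseudocount, the scaling, the filter, the threshold, loci of the same name and joined loci, and 2 more were added after seeing the data. Family shares are percentages of summed FPKM. Copies were searched with blastn 2.17.0 in GRCm38.p6, and promoter windows are those of RefSeq. Depth was estimated from the commonest lowest step of FPKM multiplied by locus length. The code for changes and calls was tested on simulated data, which says nothing of the variation between animals. Calculations used Python 3.11.15, numpy 2.4.6, pandas 2.3.3 and matplotlib 3.10.9.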

Additional observations from a re-analysis of the deposited data

How the results depend on the processing

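No paired analysis was possible because there is only 1 library for each stage, and for the same reason no replicate could be left out. From E10.5 to E13.5 the 2 genes called higher became 0 with median-of-ratios scaling, with the mRNA sum and with a change of at least 2. The 2 called lower became 4 with median-of-ratios scaling, 5 with the mRNA sum, 1 with a filter at 5 FPKM and 0 with a change of at least 2. With a change of at least 2, the adult had 5 genes above and 9 below E13.5, and 7 above and 8 below E10.5. The other counts, and the differences in isoform shares, stayed within 1.5 times their value under the alternatives run, and no called change of a gene reversed. The cause of the scaling shifts was not tested. Values of Gapdh, Pgk1, Pgam1, Eno1 and in part Gpi1 are limited by near-identical copies. Those under about 3 FPKM are limited by depth: Aldoc, Eno2 and Pgam1 rested on about 6, 23 and 25 fragments in the adult.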
